A study of Mus musculus with 6 samples.

Results

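The peptide hormones of enteroendocrine cells were described in villi of newborn mice with and without a conditional deletion of *Trpm7* in the intestinal epithelium. The set was 10 named genes, *Gip*, *Cck*, *Sct*, *Sst*, *Ghrl*, *Gcg*, *Pyy*, *Insl5*, *Nts* and *Tac1*, out of 19938 genes that had a probe set with a single symbol on the arrays. It was chosen by gene name, and every member had exactly 1 such probe set. Control pups were *Trpm7* fl/fl without Cre, and mutant pups were *Trpm7* fl/fl;*Villin1-Cre* littermates, both at 5 days of age and with the background labelled C57BL/6. According to the methods, the floxed mice were 129S6/SvEvTac and the Cre mice C57BL/6J. Both groups carried the floxed alleles and only mutants carried Cre, so effects of Cre itself and of the deletion cannot be told apart. The *Villin1* promoter drives Cre in the intestinal epithelium, the layer that also holds the enteroendocrine cells. Villi were detached from the whole intestine by mechanical force, and total RNA was hybridised to 1 whole-transcript array per replicate, with 3 replicates in each group. The study describes the samples of each genotype as villi of littermates, while the labels do not tie each replicate to 1 pup, so the p-values measure the spread between these samples.

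Enteroendocrine cells are scattered single cells of the gut epithelium that sense the contents of the lumen and release peptides or serotonin from granules on their basal side. They arise from crypt progenitors under the transcription factor Neurogenin 3, and which peptides a cell makes depends on its position along the gut. Cells making GIP (K cells), cholecystokinin (I cells) and secretin (S cells) are most frequent in the upper small intestine. L cells, which make the glucagon-like peptides from *Gcg* together with peptide YY, become more frequent towards the ileum and colon. Each hormone is made as a prohormone, cut and trimmed in the granule, and degraded by peptidases soon after release.

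Of the 10 hormones, 5 were lower in mutant than in control villi, 2 were higher and 3 did not pass the test (limma across all probe sets, two-sided, called at an adjusted p of 0.05 or less). *Insl5*, *Gip*, *Ghrl*, *Sst* and *Cck* fell by 3.51-fold to 1.79-fold, whereas *Gcg* and *Tac1* rose 2.28-fold and 2.31-fold. *Sct*, *Pyy* and *Nts* were not called. Over all 19938 genes, 10.1% were called lower, 9.39% higher and 19.5% in either direction. The median difference of the 10 hormones was -0.55 on the log2 scale, beside 0.005 for all genes. The arrays measured RNA of whole villi, in which fewer cells of a type and less RNA per cell cannot be told apart.

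The sequences upstream of 6 called hormone genes are shown because these genes moved in opposite directions in the same villi. *Ghrl*, which has 4 RefSeq starts, is left out. They are the 200 bases before the most upstream RefSeq start of each gene, 5′ to 3′ on the gene's own strand (RefSeq, build GRCm38.p6). Capitals mark GATAA, the core letters read by GATA factors, and TGACGTCA, the letters of the cAMP response element, on either strand. The windows lie at chr11:96024345-96024544 (plus strand) for *Gip*, chr9:121495695-121495894 (minus) for *Cck*, chr16:23890845-23891044 (minus) for *Sst*, chr4:103027272-103027471 (minus) for *Insl5*, chr2:62483654-62483853 (minus) for *Gcg* and chr6:7554861-7555060 (plus) for *Tac1*.
Gip: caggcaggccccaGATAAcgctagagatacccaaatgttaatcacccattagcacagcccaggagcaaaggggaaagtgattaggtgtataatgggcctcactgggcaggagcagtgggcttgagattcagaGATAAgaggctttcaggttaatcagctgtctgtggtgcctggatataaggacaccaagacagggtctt
Cck: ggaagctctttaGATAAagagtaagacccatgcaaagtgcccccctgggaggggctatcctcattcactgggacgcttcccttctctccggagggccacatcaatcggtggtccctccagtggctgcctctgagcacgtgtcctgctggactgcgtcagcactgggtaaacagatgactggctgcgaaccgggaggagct
Sst: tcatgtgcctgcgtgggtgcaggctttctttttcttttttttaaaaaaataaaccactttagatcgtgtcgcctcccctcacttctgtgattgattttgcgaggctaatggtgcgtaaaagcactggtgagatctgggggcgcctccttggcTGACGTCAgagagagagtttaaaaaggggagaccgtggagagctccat
Insl5: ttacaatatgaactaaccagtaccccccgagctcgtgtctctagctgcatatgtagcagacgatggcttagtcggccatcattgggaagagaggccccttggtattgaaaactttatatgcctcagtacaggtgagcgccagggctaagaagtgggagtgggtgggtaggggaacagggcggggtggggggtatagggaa
Gcg: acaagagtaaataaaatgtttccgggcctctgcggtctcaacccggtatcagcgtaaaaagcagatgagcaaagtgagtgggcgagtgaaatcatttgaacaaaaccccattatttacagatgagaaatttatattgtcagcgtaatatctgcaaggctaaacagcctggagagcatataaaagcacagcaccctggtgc
Tac1: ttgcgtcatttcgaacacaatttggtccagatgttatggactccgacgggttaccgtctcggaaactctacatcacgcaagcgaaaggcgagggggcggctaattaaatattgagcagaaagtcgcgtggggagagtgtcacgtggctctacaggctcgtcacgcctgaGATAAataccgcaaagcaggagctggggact

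In the 250 bases upstream of the start, GATAA was found in 4 of the 10 hormone genes and in 23.0% of the promoters of 27025 genes. *Gip* held it at 187 and 68 bases before the start, *Cck* at 188, *Tac1* at 31 and *Nts* at 130. *Gip* and *Cck* fell, *Tac1* rose and *Nts* was not called, so the letters were present in genes of each outcome. TGACGTCA was found in 1 hormone gene, *Sst*, 48 bases before its start, and in 1.6% of all promoters. The E-box letters CANNTG, read by basic helix-loop-helix factors such as Neurogenin 3 and NeuroD1, were found in 10 of 10 hormone genes and in 66.1% of all promoters. No GATAA overlapped a CANNTG in the hormone windows. *Insl5* has a further RefSeq start downstream, and 3 GATAA lay at 91, 71 and 27 bases before that one. These matches describe letters in a window and no binding was measured.

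*Gip* encodes glucose-dependent insulinotropic polypeptide, the K cell hormone that enhances insulin release after a meal. Its log2 signal was 10.72, 10.89 and 10.95 in control replicates 1 to 3 and 9.67, 9.93 and 9.44 in mutant replicates 1 to 3. Every mutant array lay below every control array. The mean fell by 1.17 log2 units, from 10.85 ± 0.12 to 9.68 ± 0.25 (mean ± SD of n = 3 arrays, as throughout), which is 2.26-fold lower (95% interval 1.83 to 2.78, adjusted p = 8.7e-04 from limma).

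*Cck* encodes cholecystokinin, which contracts the gall bladder and stimulates pancreatic enzyme secretion. Its signal was 9.55, 9.86 and 9.85 in the controls and 8.60, 9.13 and 9.01 in the mutants, again without overlap. Replicate 1 was the lowest of its group in both genotypes. The mean fell by 0.84, from 9.75 ± 0.18 to 8.91 ± 0.28, 1.79-fold lower (95% interval 1.41 to 2.28, adjusted p = 0.0076 from limma).

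*Sct* encodes secretin, which stimulates bicarbonate secretion by the pancreas and biliary tree. Its signal was 8.79, 8.73 and 8.70 in the controls and 8.37, 8.59 and 8.49 in the mutants. These groups did not overlap either, and the difference of -0.26 (95% interval -0.45 to -0.07) missed the threshold (adjusted p = 0.071 from limma). *Sct* was called lower after each array was centred on its median (adjusted p = 0.036), with dim probe sets left out (0.035) and with an offset of 32 on the linear scale (0.038). The interval ends well short of the falls of *Gip* and *Cck*. The log2 ratio of *Gip* to *Sct* within an array changed by -0.92 and that of *Cck* to *Sct* by -0.58, with no overlap between groups in either ratio. The exact permutation test of each gave p = 0.1, the smallest that 3 arrays against 3 allow (0.1 also after adjustment over the 5 pairs compared in all, which were picked with the values known).

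*Sst* encodes somatostatin, the D cell peptide that inhibits the release of most other gut hormones. Its signal was 10, 10.28 and 10.25 in the controls and 9.28, 9.24 and 8.84 in the mutants. The groups lay apart, with mutant replicate 3 the lowest array. The mean fell by 1.06, from 10.18 ± 0.15 to 9.12 ± 0.24, 2.08-fold lower (95% interval 1.68 to 2.58, adjusted p = 0.0017 from limma).

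*Ghrl* encodes ghrelin, the appetite-stimulating peptide made mainly in the stomach and also in the upper intestine. Its signal was 9.24, 9.48 and 9.35 in the controls and 8.47, 8.25 and 7.95 in the mutants. All mutant arrays were lower than all control arrays. The mean fell by 1.13, from 9.36 ± 0.12 to 8.22 ± 0.26, 2.19-fold lower (95% interval 1.77 to 2.72, adjusted p = 0.0012 from limma). *Mboat4*, the acyltransferase that makes ghrelin active, had a log2 signal of 5.31 ± 0.18 in controls and 5.44 ± 0.10 in mutants and was not called (adjusted p = 0.492).

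*Insl5* encodes insulin-like peptide 5, a product of L cells that in adult mice is made mostly in the colon. Its signal was 8.79, 8.87 and 8.93 in the controls and 7.16, 7.17 and 6.82 in the mutants. The gap between the groups was wide beside the spread within them. The mean fell by 1.81, from 8.86 ± 0.07 to 7.05 ± 0.20, 3.51-fold lower (95% interval 2.95 to 4.18, adjusted p = 7.0e-05 from limma). Ranked among all 19938 genes by difference, *Insl5* stood at place 55 from the lowest, with *Gip* at 192, *Ghrl* at 206, *Sst* at 251 and *Cck* at 404.

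*Gcg*, which in L cells yields GLP-1 and GLP-2, moved the other way. Its signal was 8.06, 8.60 and 8.63 in the controls and 9.0, 10.04 and 9.82 in the mutants. The lowest mutant array was above the highest control array, and replicate 1 was the lowest of its group in both genotypes. The mean rose by 1.19, from 8.43 ± 0.32 to 9.62 ± 0.55, 2.28-fold higher (95% interval 1.48 to 3.51, adjusted p = 0.020 from limma). The call for *Gcg* was lost without control replicate 1 (difference 1.00, adjusted p = 0.062), without mutant replicate 2 (0.98, adjusted p = 0.070) or without mutant replicate 3 (1.09, adjusted p = 0.063).

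*Pyy* encodes peptide YY, the L cell peptide that slows gut motility and reduces food intake. Its signal was 9.33, 9.52 and 9.39 in the controls and 9.31, 9.63 and 9.53 in the mutants, with the ranges overlapping. The difference of 0.08 was not called (95% interval -0.16 to 0.31, adjusted p = 0.675 from limma). The 3 L cell hormones therefore gave 3 outcomes in the same RNA, *Gcg* higher, *Insl5* lower and *Pyy* not called. Within each array the log2 ratio of *Gcg* to *Pyy* rose by 1.11 and that of *Insl5* to *Pyy* changed by -1.89, in both cases with no overlap between groups and with the smallest exact permutation p of 0.1.

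*Nts* encodes neurotensin, made in N cells of the ileum and, with *Pyy* and *Gcg*, in a part of the L cells. Its signal was 10.11, 10.15 and 10.09 in the controls and 9.74, 10.19 and 10.35 in the mutants. Mutant arrays lay on both sides of the controls, and the mutant SD was 0.32 beside 0.03 in controls. The difference was -0.02 (95% interval -0.36 to 0.31, adjusted p = 0.938 from limma). The within-array ratio of *Gcg* to *Nts* rose by 1.21 (exact permutation p = 0.1, the smallest possible).

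*Tac1* encodes the precursor of substance P and neurokinin A, which enterochromaffin cells and enteric neurons both make. Its signal was 4.78, 5.54 and 5.81 in the controls and 6.04, 7.09 and 6.63 in the mutants. The groups did not overlap, though the control mean lay under 6.27, the median of all values on the arrays. The mean rose by 1.21, from 5.38 ± 0.53 to 6.59 ± 0.53, 2.31-fold higher (95% interval 1.40 to 3.83, adjusted p = 0.035 from limma). The call for *Tac1* held without control replicate 3 or mutant replicate 1 and was lost without control replicate 1 (0.91, adjusted p = 0.081), control replicate 2 (1.29, 0.071), mutant replicate 2 (0.96, 0.111) or mutant replicate 3 (1.19, 0.086). It was also lost with trend and robust estimation (adjusted p = 0.073) and with an offset of 32 on the linear scale (0.80, adjusted p = 0.057).

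**Figure D1:**
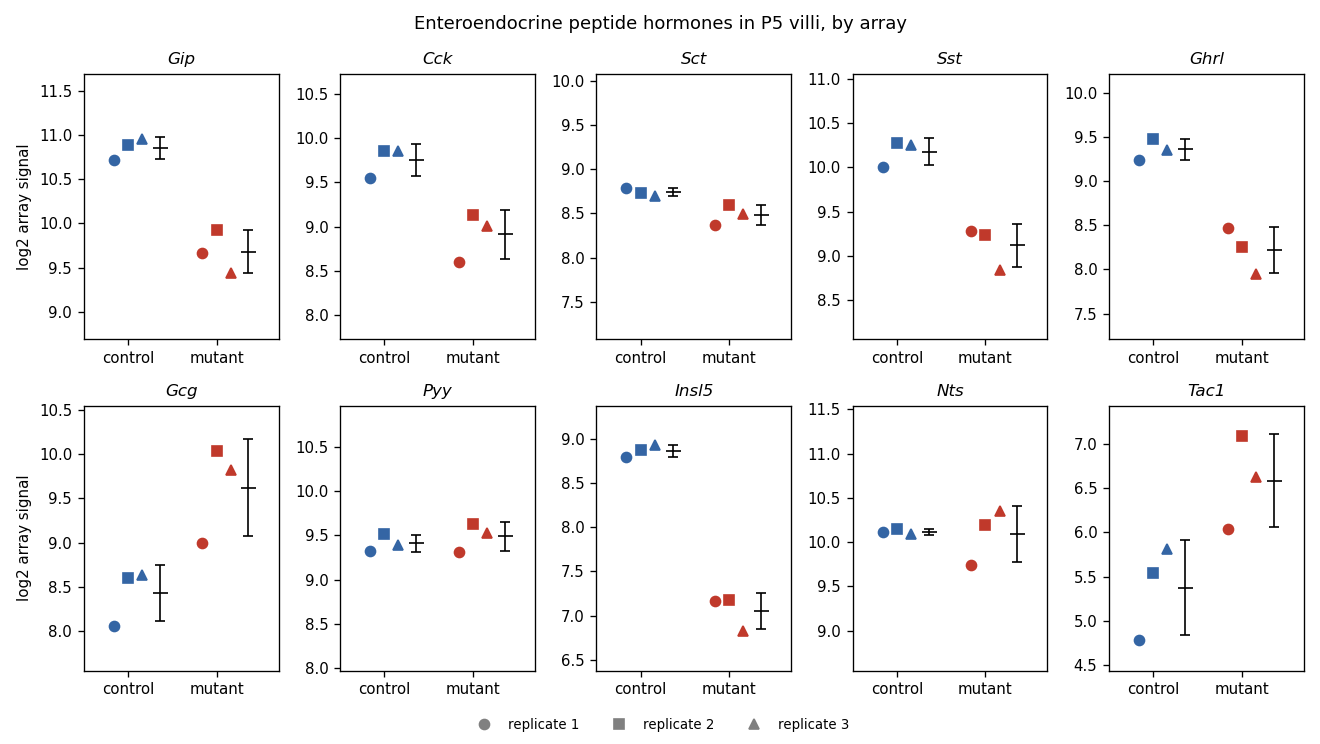
Log2 array signal of each hormone in every replicate (symbols, 3 control and 3 mutant arrays), with the group mean and SD beside the points. Each panel spans 3 log2 units around its own centre, so that distances can be compared between panels and heights cannot. Control and mutant points were apart in all panels except those of *Pyy* and *Nts*.

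Groups did not overlap for 8 of the 10 hormones, beside 37.5% of all genes. In *Gcg*, *Cck*, *Tac1* and *Pyy*, replicate 1 was the lowest array of its group in both genotypes. The share of all genes with this order was not counted, and it was not particular to the hormones. Among other genes that had it were *Dcn*, *Cyp1b1*, *Neurog3*, *Sox4*, *Chgb*, *Tph1*, *Olfm4*, *Smoc2*, *Lyz1* and *Itgam*. With replicate 1 left out of both groups, a setting chosen after this order was seen, all 7 calls held. *Gcg* was then higher by 1.31 (adjusted p = 0.0036) and *Tac1* by 1.19 (0.019), and *Insl5* was lower by a difference of -1.91.

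**Figure D2:**
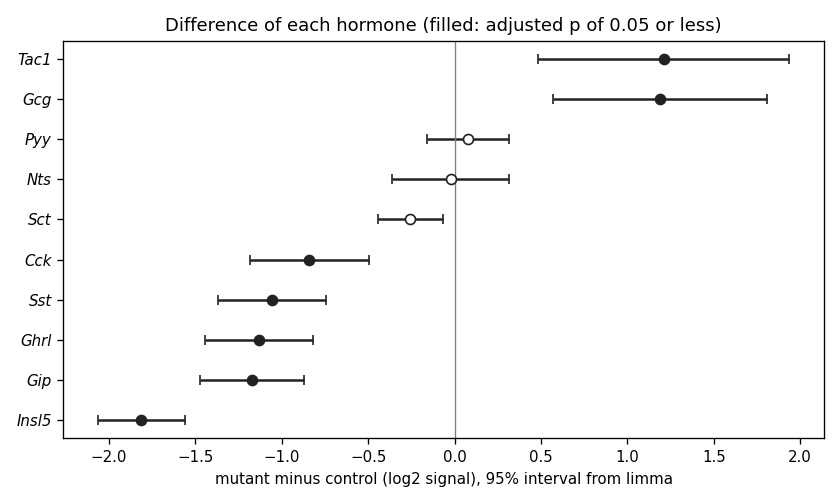
Difference between mutant and control means for each hormone on the log2 scale (points) with its 95% interval from limma (bars); filled points passed an adjusted p of 0.05. From *Insl5* at -1.81 to *Cck* at -0.84 the intervals lie below 0, those of *Gcg* and *Tac1* lie above it, and those of *Nts* and *Pyy* span it. The open point of *Sct* lies at -0.26 with its interval below 0.

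The profiles nearest to the hormone with the largest fall and the one with the largest rise were sought over the 6 arrays, each gene taken relative to its own control mean. *Tac1* had the largest rise by a small margin, 1.21 beside 1.19 for *Gcg*, and *Gcg* had the larger one in some settings, for example after quantile normalization (1.20 beside 1.18). Nearest to *Insl5* were *Rbfox3*, an RNA-binding protein best known from neurons, at a root mean square distance of 0.077 log2 units, *Egfl6* at 0.114 and *Hepacam2* at 0.138. *Rbfox3* read 7.37, 7.65 and 7.65 in controls and 5.84, 5.92 and 5.62 in mutants, a difference of -1.76. Nearest to *Tac1* was *Gcg* itself, at 0.155, followed by *Dcn*, the matrix proteoglycan decorin, at 0.214 and *Cyp1b1* at 0.257. *Dcn* read 8.17, 8.70 and 8.76 in controls and 9.20, 9.85 and 9.68 in mutants, so it too was lowest in replicate 1 of each group. These likenesses rest on 6 arrays and were picked as the closest of all genes.

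The wider enteroendocrine programme was read by lists, beside the 19.5% of all genes called in either direction. Of 18 measured transcription factors of the lineage, 2 were higher, none was lower and 16 did not pass the test, with a median difference of 0.05. *Foxa1*, a forkhead factor of endoderm and secretory cells, rose by 0.82 (7.92 to 8.74, adjusted p = 0.0014). *Sox4* rose by 0.31 (adjusted p = 0.036), a call lost without any 1 replicate other than mutant replicate 1 (adjusted p from 0.062 to 0.121). *Neurog3* itself read 4.80, 5.44 and 5.71 in controls and 5.61, 5.64 and 6.2 in mutants, with overlap and a difference of 0.50 (95% interval -0.06 to 1.06, adjusted p = 0.224). *Neurod1* differed by 0.16 (adjusted p = 0.249). Both means of 12 of these 18 genes lay under the median of all values.

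Among 19 genes of the granule and of prohormone processing, 4 were higher, 1 was lower and 14 were not called (median 0.03). *Cpe*, carboxypeptidase E, which trims basic residues off prohormone fragments, rose from 7.62 ± 0.08 to 8.44 ± 0.18 (difference 0.82, adjusted p = 0.0016). *Chga*, chromogranin A, the general granule marker, read 9.11, 9.48 and 9.47 in controls and 9.75, 9.78 and 9.75 in mutants and was higher by 0.41 (adjusted p = 0.038), and *Pam*, the enzyme that amidates peptide ends, by 0.32 (0.026). *Chga* was called without control replicate 1 and lost without any other 1 replicate (adjusted p from 0.052 to 0.113), and *Pam* was called without mutant replicate 2 and lost without any other 1 (0.061 to 0.078). The 4th was *Ptprn*, a granule membrane protein, at 0.26 (adjusted p = 0.049), a call kept without mutant replicate 3 and lost without any other 1 replicate (0.073 to 0.147) and after centring on the array median (0.099). Without any 1 replicate, 1 or 2 of the 19 were called higher. In contrast, its relative *Ptprn2* fell by 0.69 (7.39 to 6.70, adjusted p = 0.0018). *Chgb* differed by 0.33 (adjusted p = 0.242), and the convertase *Pcsk1*, which cuts proGIP and proglucagon, by 0.12 (0.430).

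Of 7 genes for serotonin, the amine of enterochromaffin cells, 2 were higher, 1 was lower and 4 were not called. *Slc18a1*, which loads serotonin into granules, read 10.22, 10.17 and 10.19 in controls and 9.57, 9.28 and 9.37 in mutants and fell by 0.79 (adjusted p = 0.0010). *Maoa*, which breaks serotonin down, rose by 0.77 (5.66 to 6.43, adjusted p = 7.0e-04). *Tph1*, the rate-limiting enzyme of its synthesis in the gut, differed by 0.16 (adjusted p = 0.369). *Ddc*, the decarboxylase that completes the synthesis, read 7.75, 8.04 and 8.0 in controls and 10.05, 9.62 and 8.35 in mutants and rose by 1.41 (adjusted p = 0.037). The *Ddc* call was lost without any 1 replicate other than mutant replicate 3 (adjusted p from 0.084 to 0.127), which read the lowest of the mutants.

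Of 19 other gut peptides, 1 was higher, none lower and 18 not called (median 0.02), and 15 of the 19 had both means under the median of all values. The 1 was *Guca2a*, guanylin, a peptide that acts on guanylate cyclase C in the lumen. Its signal was 10.85, 10.08 and 10.17 in controls and 11.93, 11.84 and 12.08 in mutants, a rise of 1.58 (95% interval 1.14 to 2.03, adjusted p = 0.0013). Its relative *Guca2b* differed by 0.26 (adjusted p = 0.137).

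Receptors and sensors were mostly dim. Of 15 nutrient-sensing genes, 1 was higher, 1 lower and 13 not called. *Ffar2*, a receptor for short-chain fatty acids, read 6.69, 6.68 and 6.79 in controls and 5.75, 5.78 and 5.83 in mutants and fell by 0.93 (adjusted p = 1.9e-04). *Slc15a1*, the peptide transporter PepT1, was higher by 0.26 (adjusted p = 0.037) and was not called without any 1 of the 6 replicates (adjusted p from 0.080 to 0.098). Of 24 receptors for these hormones, none was higher, 1 was lower and 23 were not called (median 0.07), with 20 of them under the median of all values in both groups. *Glp1r*, the receptor for GLP-1, fell by 0.66, from 7.32 ± 0.09 to 6.66 ± 0.17 (adjusted p = 0.0039).

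Peptidases that degrade gut hormones moved in both directions. Of 10 measured, 3 were higher, 5 were lower and 2 were not called. *Xpnpep2*, aminopeptidase P, rose by 2.21 (8.02 to 10.23, adjusted p = 1.0e-04), *Enpep*, glutamyl aminopeptidase, by 1.04 (0.0011) and *Dpp4*, which inactivates GLP-1 and GIP, by 0.95 (10.86 to 11.81, adjusted p = 3.1e-04). *Mme*, neprilysin, fell by 1.76 (11.98 to 10.22, adjusted p = 4.5e-05) and *Prcp* by 0.99 (5.1e-04), and *Ece1*, *Ace* and *Ide* were lower by differences of -0.85, -0.52 and -0.47. The *Ide* call was lost without control replicate 3 or any 1 mutant replicate (adjusted p from 0.051 to 0.090). Several of these enzymes, such as *Dpp4*, *Mme* and *Enpep*, are made largely by enterocytes, the main cell of the villus.

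**Figure D3:**
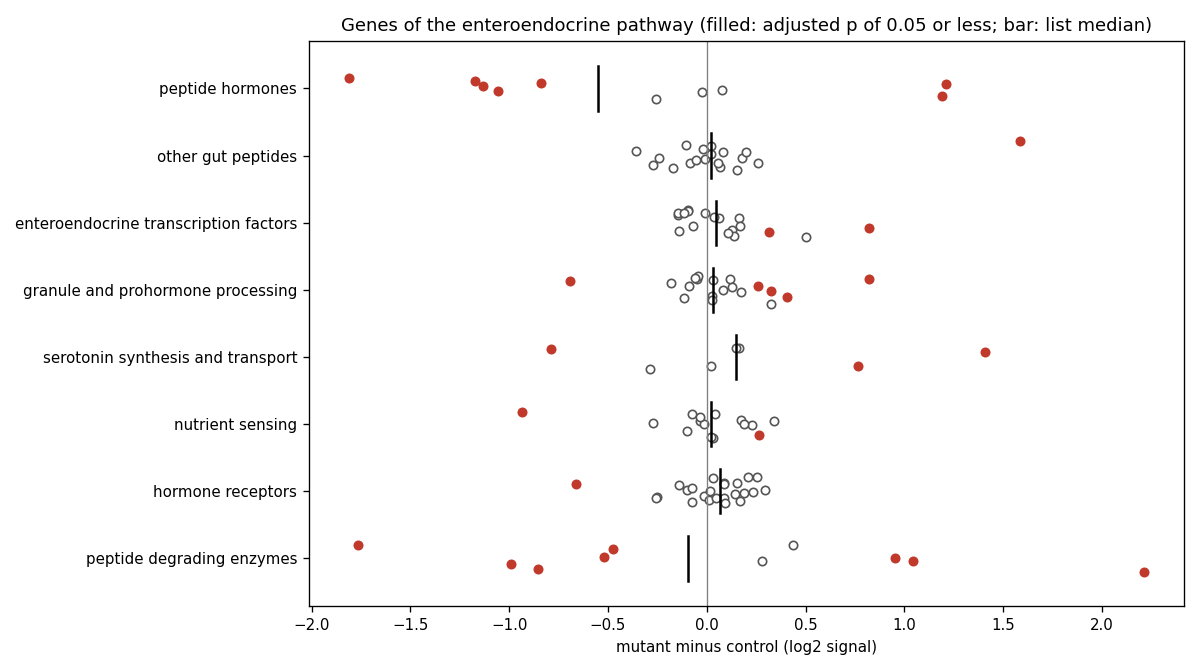
Difference between mutant and control for every measured gene of each list (points; filled where the adjusted p was 0.05 or less) with the median of the list (bar), on the log2 scale. The 10 peptide hormones spread from -1.81 to 1.21 around a median of -0.55, while the lists of transcription factors, granule genes and receptors mostly gather near 0. The peptidases spread more widely, from -1.76 to 2.21, the serotonin genes from -0.79 to 1.41, and *Guca2a* lies at 1.58. Both means lay under the median of all values for 12 of 18 transcription factors, 8 of 19 granule genes and 20 of 24 receptors, and for none of the hormones.

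Because hormone-making cells differ along the gut, markers of region were read beside the hormones. Of 5 proximal markers, 4 were lower and 1 was not called. *Pdx1*, a factor of the duodenum, read 6.95, 7.53 and 7.46 in controls and 6.67, 6.56 and 6.07 in mutants and fell by 0.88 (adjusted p = 0.019). *Onecut2* fell by 0.88 (10.05 to 9.18, adjusted p = 9.3e-04), *Gata4* by 0.34 (adjusted p = 0.017) and *Cybrd1*, a duodenal ferric reductase, by 1.06 (adjusted p = 0.044). The *Pdx1* call was lost without control replicate 2 (adjusted p = 0.067) or 3 (0.069), that of *Gata4* without control replicate 2 (0.060) and that of *Cybrd1* without any 1 replicate but mutant replicate 1 (from 0.087 to 0.138). Without control replicate 2, 1 of these 5 markers was called lower, and without control replicate 3, 2 were.

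Of 5 distal markers, 3 were higher and 2 were not called. *Fabp6*, the ileal bile acid binding protein, read 7.82, 5.64 and 5.56 in controls and 9.93, 10.82 and 9.87 in mutants and rose by 3.87 (adjusted p = 0.0034). *Slc10a2*, the ileal bile acid transporter, rose by 2.64 (4.22 to 6.86, adjusted p = 0.0052) and *Osr2*, a transcription factor, by 0.93 (7.78 to 8.71, adjusted p = 0.0090). The summed log2 level of the proximal markers was 50.41 to 51.35 in controls and 46.89 to 49.20 in mutants, and that of the distal markers 39.74 to 42.53 and 47.26 to 49.30. Lower *Gip*, *Cck*, *Sst* and *Ghrl* and higher *Gcg* were seen together with these shifts. In contrast, *Insl5* fell, and *Sct* (-0.26), *Pyy* and *Nts* were not called. Control replicate 1 had the highest *Fabp6* and the lowest *Pdx1* of the controls. It also had their lowest *Gip*, *Cck*, *Sst*, *Ghrl* and *Insl5*, and their lowest *Gcg*. Among the mutants, replicate 2 had the highest *Fabp6* and the highest *Gcg*, but also the highest *Gip* and *Cck*. Mutant replicate 1 had the highest *Slc10a2* and *Osr2* and the lowest *Gcg*. Mutant replicate 3 had the lowest *Pdx1*, *Gip*, *Sst*, *Ghrl* and *Insl5*, but not the lowest *Cck*. Of 6 colon markers, none was higher, 1 was lower and 5 were not called, and 5 had both means under the median of all values. The 1 was *Slc26a3*, an anion exchanger also made in the small intestine, at -0.64 (adjusted p = 0.013). Which stretch of gut each RNA came from is not recorded beyond whole intestine, and the part of region in the hormone differences was not tested.

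Markers of other epithelial cell types differed in outcome. Of 8 enterocyte markers, 1 was higher, 1 was lower and 6 were not called, with summed levels of 106.49 to 106.61 in controls and 106.33 to 106.43 in mutants. *Fabp1* fell by 0.59 (adjusted p = 0.0026) and *Epcam* was higher by 0.27 (adjusted p = 0.039), a call lost without any 1 of the 6 replicates (from 0.052 to 0.129). Of 6 goblet cell markers, 5 were lower and 1 was not called, and their summed level was 65.01 to 66.33 in controls and 52.44 to 55.14 in mutants. *Muc2*, the main mucin, fell by 2.69 (11.67 to 8.98, adjusted p = 4.7e-06), and *Tff3*, *Clca1* and *Agr2* by differences of -2.78, -3.46 and -1.21. Of 5 tuft cell markers none was called, and of 6 stem and Paneth cell markers 4 were higher, *Mmp7* by 1.07, *Lyz1* by 0.64, *Ascl2* by 0.63 and *Smoc2* by 0.49. Leaving out 1 replicate, *Mmp7* and *Ascl2* were called in all 6 fits, and *Lyz1* and *Smoc2* in 2 of 6 each. Without control replicate 3 or mutant replicate 2, both *Lyz1* (adjusted p = 0.071 and 0.120) and *Smoc2* (0.069 and 0.064) were lost. *Olfm4*, a stem cell marker, went the other way at 9.11, 10.61 and 10.66 in controls and 8.57, 9.42 and 9.53 in mutants, a difference of -0.95 that was not called (adjusted p = 0.184). Without control replicate 1 it was called lower (-1.46, adjusted p = 0.016), as it was without replicate 1 of both groups (-1.16, 0.0032), with the replicate block (0.0084) and with the Y-linked covariate (0.0065). Goblet and enteroendocrine cells both belong to the secretory lineage. Of the 10 hormones 5 were lower and 2 higher, and of the 6 goblet markers 5 were lower. Over all genes, 10.1% were called lower and 9.39% higher. The Paneth cell markers *Mmp7* and *Lyz1* went the other way. Whether the lower goblet transcripts bear on the hormones was not tested.

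*Tac1* is also made by enteric neurons, *Sst* and *Ghrl* by the stomach, and *Gcg*, *Sst*, *Ghrl* and *Pyy* by pancreatic islets, so markers of those tissues were read as well. None of 9 enteric neuron markers was called, 8 had both means under the median of all values, and their summed level was 51.10 to 52.11 in controls and 51.18 to 52.50 in mutants. Of 3 glial markers, *S100b* fell by 2.06 (8.19 to 6.13, adjusted p = 4.3e-04) and *Sox10* and *Gfap* were not called. Of 7 mesenchyme and muscle markers, *Pdgfra* was higher by 0.56 (adjusted p = 0.016, lost without mutant replicate 2 at 0.064) and 6 were not called, with summed levels of 54.22 to 57.01 and 55.98 to 57.67. Replicate 1 had the lowest sum of these markers in both groups, as it had the lowest *Tac1* and *Gcg*. It also had the lowest *Cck*, which fell, and the lowest *Pyy*, which was not called. Of 5 leukocyte markers, *Adgre1* was lower by a difference of -0.54, *Itgam* was higher by 0.83 (adjusted p = 0.045, called without mutant replicate 1 and lost without any other 1 replicate) and 3 were not called. The part of these cells in the results for *Tac1* and *Gcg* was not tested.

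None of 8 stomach markers was called, but their summed level was 41.05 to 41.66 in controls and 42.38 to 48.80 in mutants. *Gkn2*, a gastrokine of the stomach surface, read 4.43, 4.52 and 4.36 in controls and 7.56, 4.98 and 4.83 in mutants, so mutant replicate 1 stood apart, and without it *Gkn2* was called higher by 0.47 (adjusted p = 0.023). That replicate also had the highest *Ghrl* (8.47) and the highest *Sst* (9.28) of the mutants. Without it the difference was -1.26 for *Ghrl* and -1.14 for *Sst*, both called. Of 5 pancreas markers, 4 were not called and *Cela1* was lower by a difference of -0.35 (adjusted p = 0.016, lost without control replicate 2 at 0.059 or control replicate 3 at 0.050). *Cpa1*, a carboxypeptidase of pancreatic acini, read 6.67, 8.66 and 8.88 in controls and 8.78, 6.63 and 8.23 in mutants, and *Ins2*, insulin, differed by 0.08 (adjusted p = 0.840). The summed pancreas level ranged from 33.47 to 39.41 in controls and from 32.81 to 37.49 in mutants, with control replicate 1 and mutant replicate 2 the lowest in *Cpa1*. The part of pancreas or stomach tissue in the hormone levels was not tested.

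**Figure D4:**
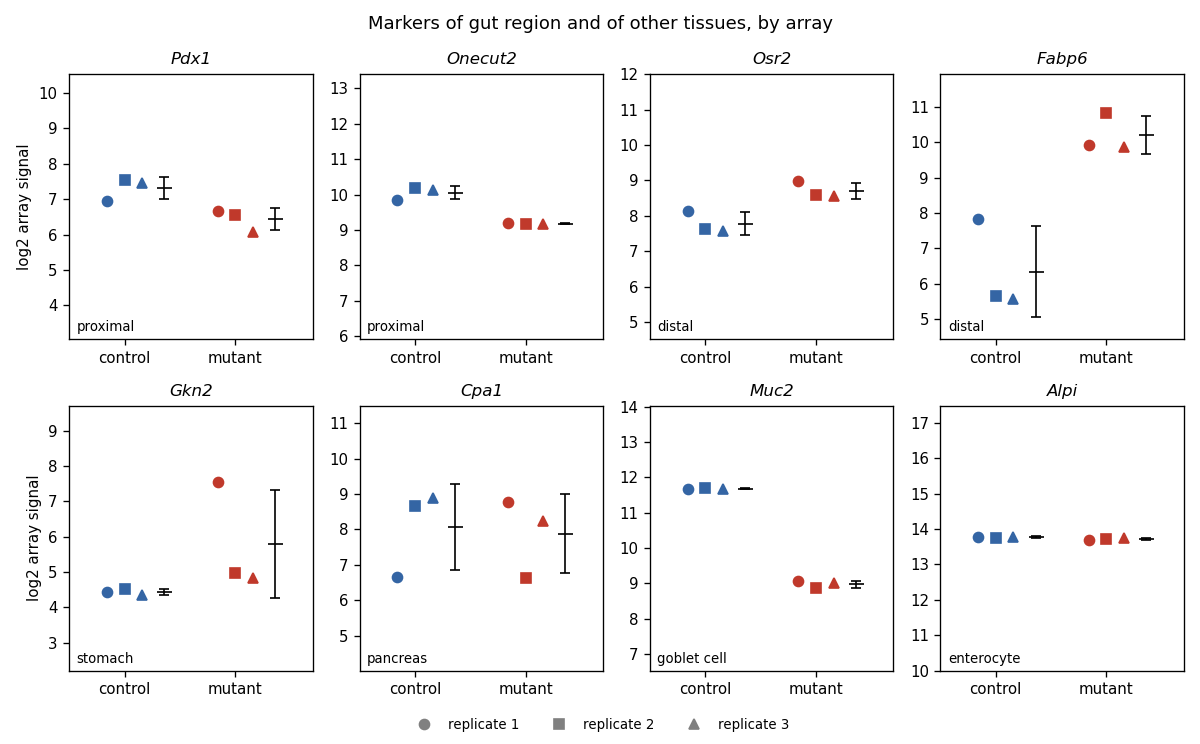
Log2 array signal of 8 marker genes of gut region, stomach, pancreas, goblet cells and enterocytes in every replicate (symbols), with group mean and SD. Each panel spans the same number of log2 units around its own centre. *Pdx1*, *Onecut2* and *Muc2* lie lower and *Osr2* and *Fabp6* higher in all mutant arrays, while *Gkn2* is high in mutant replicate 1 and *Cpa1* varies within both groups.

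Facts of the whole series that touch these values were few. *Trpm7* read between 8.96 and 9.11 in the controls and between 7.79 and 8.03 in the mutants, a difference of -1.13 (adjusted p = 1.9e-04), and the position of its probe set relative to the deleted exon was not checked here. The medians of the 6 arrays ran from 6.24 to 6.30. Sex was labelled unknown. Y-linked transcripts averaged 4.0, 7.22 and 7.37 in the controls and 3.83, 7.69 and 7.90 in the mutants, and *Xist* read 10.48, 9.82 and 9.66 and 10.18, 4.76 and 5.26. Control replicates 2 and 3 thus held both kinds of transcript, and replicate 1 of each group was the one without Y-linked signal. With the Y-linked level as a covariate, all 7 hormone calls held, though this level was similar in the 2 groups. *Xist*, high in all controls and low in mutant replicates 2 and 3, entered no fit. The part of sex in the hormone differences was not tested.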

How the data were processed

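The authors deposited a table of log2 signals with 30177 probe sets in its lines and the 6 arrays in its columns. Per the labels, total RNA was labelled with biotin for whole-transcript Affymetrix arrays. How the scans were background-corrected, summarised and normalized is not stated in the sources used here. In the platform annotation 21789 had a single symbol, 1621 had more and 6767 had none. RefSeq gene names replaced older symbols of 21698, matched by Entrez ID. Of a gene's single-symbol probe sets, the one highest on average stood for it. Precision is limited by the number of arrays.

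The 2 genotypes were compared in limma 3.58.1 (lmFit and eBayes, statmod 1.5.0, R 4.3.3) on the log2 values of all probe sets, two-sided, with Benjamini-Hochberg adjustment over all of them. The prior had 3.92 degrees of freedom. The fit was tested on simulated data. Intervals of 95% and SE came from the same fit. Ratios between hormones were compared by the exact permutation test. Hormone and list members were chosen with earlier results of these data known. Lists were described by counts and medians, without a test. Genes named were *Trpm7*, all hormones, up to 4 called members with the largest absolute difference of each list (2 at most where no member was called) and the 3 profiles nearest to *Insl5* and *Tac1*. *Neurog3*, *Neurod1*, *Mboat4*, *Ptprn*, *Chgb*, *Pcsk1*, *Tph1*, *Guca2b*, *Dpp4*, *Ece1*, *Ace*, *Ide*, *Sox10*, *Gfap*, *Cpa1*, *Ins2*, *Alpi* and *Olfm4* were named after their values were seen. List counts cover the members measured here, and some genes are not reported here. Promoter windows came from RefSeq (GRCm38.p6), with letters searched on both strands in 250 bases upstream of the most upstream start. Tables and figures were made with pandas 2.3.3 and matplotlib 3.10.9 in Python 3.11.15. No array was left out of the comparison.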

Additional observations from a re-analysis of the deposited data

How the results depend on the processing

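The falls of *Insl5*, *Gip*, *Ghrl*, *Sst* and *Cck* were called in all 16 alternatives, with 5 hormones lower in 13 of them and 6, *Sct* included, in 3. The 2 rises were less stable. With trend and robust estimation 1 was called, with dim probe sets left out 1 (*Tac1* was not among the genes kept), and with an offset of 32 on the linear scale 1. Leaving out 1 replicate gave 0 to 2 called rises, with 0 without control replicate 1, mutant replicate 2 or mutant replicate 3, and 1 without control replicate 2. Same-numbered replicates correlated at 0.174, 0.039 and 0.119 in their deviations from the group means; with 1 of the 3 under 0.1, the numbers were not taken to pair the samples, although replicate 1 of both groups lacked Y-linked signal. With the replicate number as a block, 5 hormones were lower and 2 higher, and *Gcg* had an adjusted p of 0.00193, and *Neurog3* was called higher (0.044). The sign of the *Nts* difference turned in some settings (-0.15 to 0.15), never with a call. Of 640 counts over the other lists, 563 stayed within 1.5 times, and of 819 values of 52 named genes, 728 stayed on their side of the threshold, 89 calls were lost and 2 gained. The causes were not tested. The setting without replicate 1 of both groups was chosen after the data were seen. Every hormone had 1 probe set, so no other probe set gave a value. 3 arrays a group limit what can be called.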
